A study of Canis lupus familiaris with 25 samples.

Results

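Genes of the endoplasmic reticulum (ER) stress response and of the early secretory pathway were read out in 25 canine tumor samples. The 55 genes were set by name, with earlier results of these data known. They are stress sensors, transcription factors, lumenal chaperones, disulfide oxidoreductases, translocation and signal peptide genes, ER-associated degradation genes and ER to Golgi transport genes. All 55 were found among the 24532 genes of the deposited table. The samples were archival formalin-fixed, paraffin-embedded (FFPE) tumors of pet dogs, whose RNA was sequenced from the 3′ ends of transcripts (QuantSeq 3′). Hepatoid gland adenoma (HGA), which is benign, was taken from 10 dogs aged 8 to 14 years. Apocrine gland anal sac adenocarcinoma (AGASAC), which is malignant, was taken as the primary tumor from 11 dogs aged 8 to 12.5 years, and as a sublumbal lymph node metastasis from 4 of these dogs, numbers 1 to 4, aged 8 to 10 years. The labels name no treatment and no engineered allele. RNA came from scrolls of whole cross sections after adjacent tissue had been trimmed away, so each value is a mixture of tumor cells and the other cells of the section.

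Proteins that are to be secreted enter the ER through the SEC61 channel, lose their signal peptide, fold with the help of chaperones and disulfide-forming enzymes, and leave in COPII vesicles. When unfolded proteins build up, the sensors IRE1 (gene ERN1), PERK (gene EIF2AK3) and ATF6 set off the unfolded protein response, in which the transcription factors XBP1, ATF4 and cleaved ATF6 raise chaperone, transport and degradation genes. Secretory cells such as gland epithelium and plasma cells also keep much of this machinery at a high level as part of their normal work. In IRE1 signaling XBP1 mRNA is spliced and PERK acts through phosphorylation. Gene counts from 3′ reads report neither step, so the values below are mRNA levels and not pathway activity.

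The counts summed to 1562347 to 6389555 per sample in HGA, 2581453 to 4218340 in primary AGASAC and 2857541 to 3289546 in the metastases. Levels are given as CPM, the count relative to the library total scaled by TMM over all 25 samples. A gene with 0 counts may still be present at a level that would give up to 3 counts. This floor is 0.543 to 1.84 CPM depending on the sample. DV200, the share of RNA in fragments longer than 200 nt, ranged from 70.5 to 92.7% in HGA, 70.2 to 84.4% in primary AGASAC and 71.8 to 82.9% in the metastases. Epithelial markers separated the tumor types. Of 6 glandular epithelium markers, all detected in all 3 groups, the summed level was 409 to 731 CPM in HGA, 5392 to 10188 CPM in primary AGASAC and 5251 to 10452 CPM in the metastases. Of 6 stratified and sebaceous epithelium markers the summed level was 4952 to 17811 CPM in HGA, at most 30.5 CPM in primary AGASAC and at most 18.5 CPM in the metastases. HGA 10 stood apart in 7 proliferation markers, with 359 CPM against 29.7 to 208 CPM in the other HGA. HGA 10 was also the only sample of RNA extraction batch 9. Counts with and without it are given below.

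For the "HGA versus AGASAC" comparison, the question was how the ER machinery differs between the benign and the malignant tumor entity. Most of the difference ran one way: stress sensors, transcription factors, chaperones, oxidoreductases and transport genes included members that were lower in HGA, and EDEM2 alone was called higher. A gene was called at an adjusted p up to 0.05 (edgeR's quasi-likelihood test, Benjamini-Yekutieli) if its log2 fold change (log2FC) was also −1 or below, or 1 or above. AGASAC was the baseline, so a negative log2FC means lower in HGA. Of the 53 members that passed the filter on low counts, 20 (37.7%) were called, 19 of them lower and 1 higher in HGA. Over all 12070 tested genes 25.1% were called, 12.5% lower and 12.6% higher. The median log2FC was −0.72 over the members and −0.03 over all tested genes (−0.37 over the 44 members with at least 10 counts in every sample), and 14 of the 53 members had a log2FC above 0, against 48.5% of all tested genes. An unadjusted p under 0.05 was found in 36 of the 53, against 53.7%. The lowest value of one tumor type lay above the highest value of the other in 16 of the 53 members, against 9.13% of all tested genes. Since the members were chosen with earlier results of these data known, these shares describe the list and do not test it. Without HGA 10, 20 members were called, with SEC23B in place of DNAJC10. In bulk tissue, fewer cells of a type and less RNA per cell cannot be told apart, and this holds for every level below. The p-values measure the spread between tumors of different dogs.

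**Figure D1:**
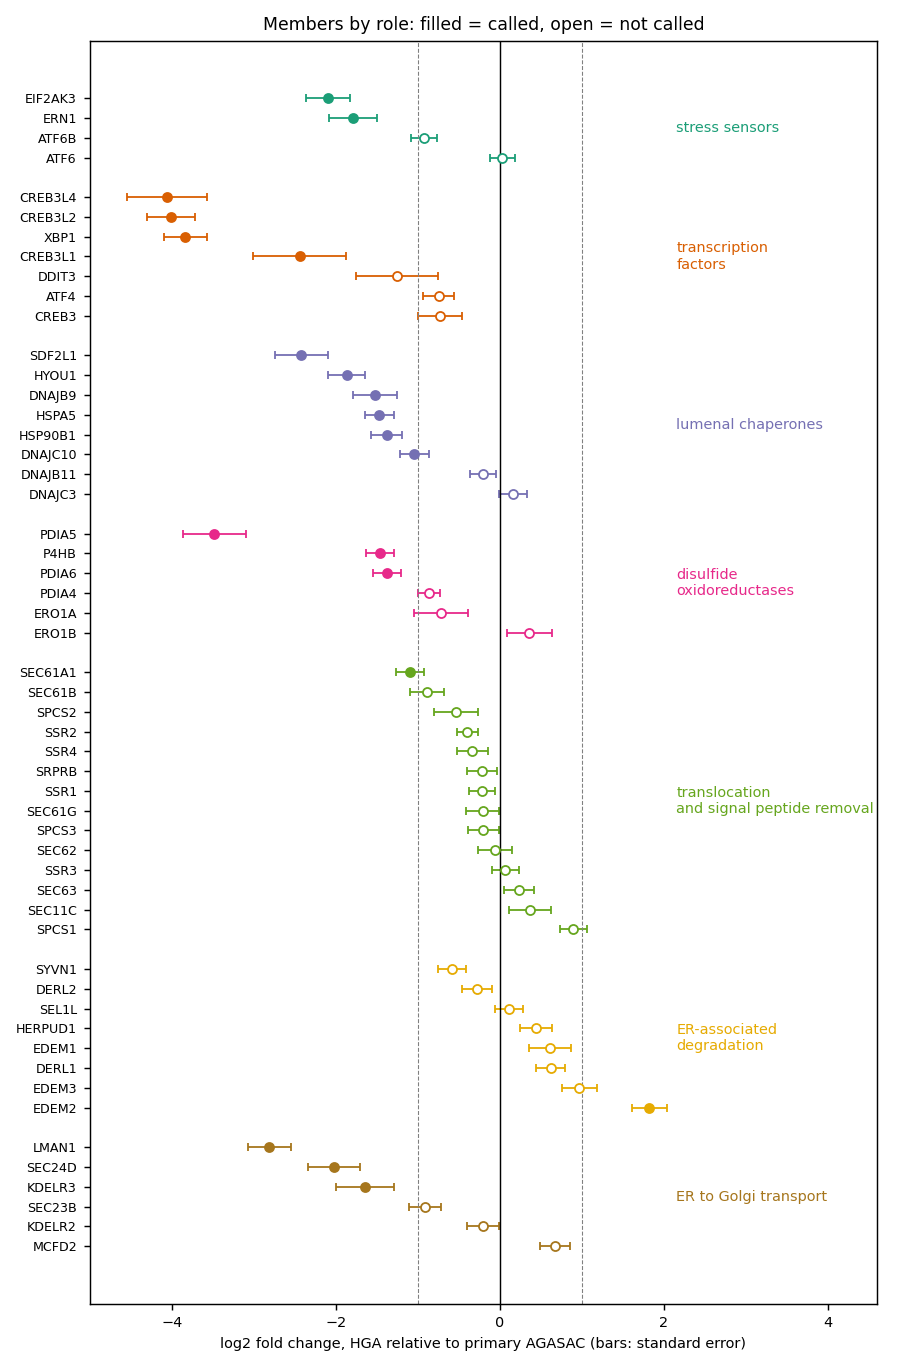
Log2FC of HGA (n = 10) relative to primary AGASAC (n = 11) for the 53 tested members, one row per gene, grouped and colored by role. Points give the log2FC, bars the standard error, and filled points mark the 20 called genes. Filled points lie to the left of the dashed line at −1 in every role but ER-associated degradation, where EDEM2 is the filled point on the right.

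Among the stress sensors, 2 of 4 tested genes were called lower in HGA and none higher. EIF2AK3, which encodes PERK, ranged from 4.24 to 25.3 CPM in HGA (median 12.3) and from 31.3 to 84.4 CPM in primary AGASAC (median 48.2). In the metastases 1 to 4 it was 75.6, 45.9, 44.1 and 39.9 CPM. No HGA reached the lowest AGASAC sample, and the metastases lay within the range of the primary tumors. Group means were 12.2 ± 6.39 CPM (SD, n = 10) in HGA and 53.5 ± 15.9 CPM (SD, n = 11) in AGASAC, with a log2FC of −2.10 (SE 0.27, adjusted p = 9.25e-06).

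ERN1, which encodes IRE1, had a median of 16.7 CPM in HGA (11.8 to 60.9) and of 78.4 CPM in AGASAC (36.1 to 135). The groups overlapped through HGA 4 alone, which at 60.9 CPM was far above the next HGA at 26.2 CPM. The log2FC was −1.79 (SE 0.30, adjusted p = 0.000259), and without HGA 4 it was −2.14 (adjusted p = 1.29e-06). Neither ATF6 gene was called. ATF6 itself had nearly the same mean in both types, 45.1 ± 8.22 CPM (SD, n = 10) in HGA and 45.0 ± 11.0 CPM (SD, n = 11) in AGASAC, with a log2FC of 0.03 (SE 0.15). ATF6B, its paralog, was 38.4 ± 10.3 CPM (SD, n = 10) against 74.4 ± 14.2 CPM (SD, n = 11). Its log2FC of −0.92 (SE 0.16, adjusted p = 0.000555) fell short of the fold threshold, which it passed at −1.01 without HGA 2. ERN2, the IRE1 paralog known from mucosal epithelium, had 0 counts in all HGA and metastases and at most 2.41 CPM in AGASAC, and was not tested.

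Of the 7 transcription factors, 4 were called lower in HGA, and they held the largest changes of all members. XBP1, the factor downstream of IRE1, ranged from 18.7 to 48.9 CPM in HGA (median 30.1) and from 185 to 768 CPM in primary AGASAC (median 431). In the metastases 1 to 4 it was 649, 456, 509 and 505 CPM. The gap between the highest HGA and the lowest AGASAC sample was wider than the whole HGA range. Means were 31.3 ± 9.69 CPM (SD, n = 10) and 457 ± 182 CPM (SD, n = 11), a 14.3-fold lower level in HGA by the fit (log2FC −3.83, SE 0.26, adjusted p = 4.78e-10).

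CREB3L2 and CREB3L4 are membrane-bound factors of the CREB3 family, which are cleaved at the Golgi and are known to drive secretory pathway genes. CREB3L2 ranged from 4.32 to 37 CPM in HGA (median 19.8) and from 160 to 506 CPM in AGASAC (median 334). The metastases had 341, 121, 258 and 393 CPM, so metastasis 2 fell below the lowest primary tumor but stayed above every HGA. The log2FC was −4.01 (SE 0.30, adjusted p = 1.89e-09). CREB3L4 was at or near the count floor in several HGA, from 0 to 9.22 CPM (median 2.39), with the highest value in HGA 4. In AGASAC it ranged from 10.6 to 68.3 CPM (median 36.9), and the metastases had 58.4, 67.4, 42.8 and 33.9 CPM. Even the lowest AGASAC sample, AGASAC 4, exceeded HGA 4, and the log2FC was −4.06 (SE 0.49, adjusted p = 3.85e-06).

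CREB3L1, a relative known from collagen-secreting bone cells and fibroblasts, was less even. It ranged from 0.424 to 16.5 CPM in HGA (median 3.43) and from 8.44 to 97.9 CPM in AGASAC (median 17.5), so the groups overlapped, and the metastases had 2.92, 26.8, 6.11 and 20.8 CPM. The log2FC of −2.44 (SE 0.57, adjusted p = 0.0113) was −1.65 (adjusted p = 1) with the series of FASTQ file names as a term and −0.99 within its series A, and was not called in either. ATF4, the factor downstream of PERK, was 367 ± 95.5 CPM (SD, n = 10) in HGA and 628 ± 220 CPM (SD, n = 11) in AGASAC. With a log2FC of −0.75 (SE 0.19, adjusted p = 0.0226) it was not called. DDIT3, which encodes the stress-induced factor CHOP, was low in all groups, at 0 to 9.41 CPM in HGA and 2.45 to 18.9 CPM in AGASAC. Its log2FC of −1.25 (SE 0.51) had an adjusted p of 0.443, and that of CREB3 was −0.73 (SE 0.27, adjusted p = 0.287).

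**Figure D2:**
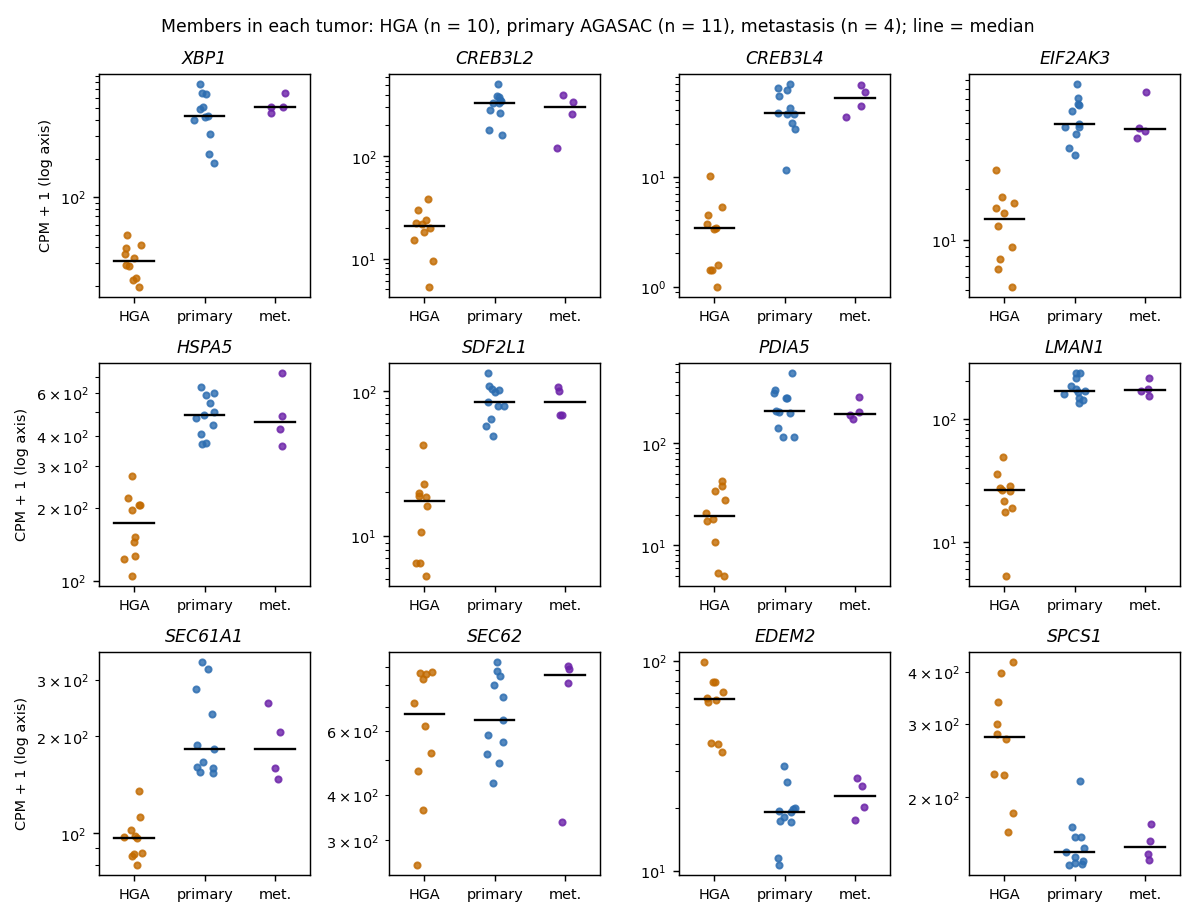
Levels of 12 members in each tumor, as CPM + 1 on a logarithmic axis whose range differs between panels. Each point is a tumor (HGA n = 10, primary AGASAC n = 11, metastasis n = 4) and the line is the median of the group. XBP1, CREB3L2 and PDIA5 show HGA apart from both AGASAC groups, SEC62 shows no separation, and EDEM2 runs the other way.

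Of the 8 lumenal chaperones, 6 were called lower in HGA and none higher. HSPA5, which encodes BiP, the main ER chaperone and a standard readout of ER stress, ranged from 104 to 270 CPM in HGA (median 173) and from 367 to 636 CPM in AGASAC (median 487). The metastases had 482, 423, 362 and 725 CPM, 2 of them outside the range of the primary tumors. HGA lay below all AGASAC samples, with a log2FC of −1.47 (SE 0.18, adjusted p = 3.55e-06).

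SDF2L1, a BiP partner in the ER lumen, had the largest change of the group. It ranged from 4.32 to 41.3 CPM in HGA (median 16.4), with the highest value in HGA 10, and from 47.9 to 132 CPM in AGASAC (median 83.7). The metastases had 106, 67.1, 67.2 and 98.7 CPM. All of them lay within the range of the primary tumors, and the log2FC was −2.42 (SE 0.32, adjusted p = 1.54e-05).

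HYOU1, a nucleotide exchange factor for BiP, was 100.2 ± 34.1 CPM (SD, n = 10) in HGA against 374 ± 123 CPM (SD, n = 11) in AGASAC, with a log2FC of −1.87 (SE 0.22, adjusted p = 2.52e-06). HSP90B1, the ER form of HSP90, was 121 ± 52.6 CPM (SD, n = 10) against 321 ± 39.9 CPM (SD, n = 11), with a log2FC of −1.38 (SE 0.18, adjusted p = 1.51e-05). Neither gene overlapped between the tumor types, although HSP90B1 reached 253 CPM in HGA 7. Both DNAJ co-chaperones that were called overlapped between the types. DNAJB9, an IRE1 target that also restrains IRE1, was 16.2 ± 7.89 CPM (SD, n = 10) against 47.6 ± 16.9 CPM (SD, n = 11), with a log2FC of −1.52 (SE 0.27, adjusted p = 0.00068). DNAJC10, a disulfide reductase with a J domain, was 61.8 ± 18.2 CPM (SD, n = 10) against 130 ± 32.5 CPM (SD, n = 11). Its log2FC of −1.04 (SE 0.18, adjusted p = 0.000441) was just past the fold threshold, and it fell short, at −0.977 to −0.997, without AGASAC 2, HGA 4, HGA 9 or HGA 10, each left out in turn. The other two DNAJ members were not called: DNAJB11 had a log2FC of −0.20 (SE 0.16) and DNAJC3, which encodes a PERK inhibitor, one of 0.16 (SE 0.17).

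The disulfide oxidoreductases included 3 of 6 members called lower. PDIA5, a protein disulfide isomerase linked to the activation of ATF6, ranged from 4.07 to 41.7 CPM in HGA (median 18.6) and from 115 to 487 CPM in AGASAC (median 205). The metastases had 283, 172, 188 and 200 CPM. The groups did not overlap, and the log2FC was −3.48 (SE 0.38, adjusted p = 1.02e-06).

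P4HB, the classical protein disulfide isomerase, was 269 ± 70.5 CPM (SD, n = 10) in HGA and 758 ± 159 CPM (SD, n = 11) in AGASAC, with a log2FC of −1.46 (SE 0.17, adjusted p = 1.96e-06). PDIA6, which binds BiP and dampens the sensors, was 171 ± 51.2 CPM (SD, n = 10) against 452 ± 81.1 CPM (SD, n = 11), with a log2FC of −1.38 (SE 0.17, adjusted p = 6.06e-06). PDIA4 did not overlap between the types either, at 129 to 210 CPM in HGA and 234 to 411 CPM in AGASAC. It was not called, since its log2FC was −0.86 (SE 0.14, adjusted p = 0.000136). The oxidases that recharge the isomerases were not called, with a log2FC of −0.72 (SE 0.33, adjusted p = 0.73) for ERO1A and 0.36 (SE 0.27) for ERO1B.

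Translocation and signal peptide genes made up the largest role and changed least: 1 of 14 was called lower, none higher, and the median log2FC was −0.21. That gene was SEC61A1, which encodes the channel itself. It ranged from 78.9 to 135 CPM in HGA (median 96.0) and from 153 to 339 CPM in AGASAC (median 182), and the metastases had 253, 159, 147 and 205 CPM. The types did not overlap, and the log2FC was −1.09 (SE 0.17, adjusted p = 0.000111). With the RNA extraction batch as a term it was −0.95, which is short of the fold threshold.

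Its partner SEC61B had a log2FC of −0.89 (SE 0.21, adjusted p = 0.0114). SEC62, an accessory factor of the channel, was 636 ± 227 CPM (SD, n = 10) in HGA and 674 ± 172 CPM (SD, n = 11) in AGASAC, a log2FC of −0.06 (SE 0.21). SPCS1, a subunit of the signal peptidase, had the highest log2FC of the role, at 281 ± 85.2 CPM (SD, n = 10) in HGA and 155 ± 23.6 CPM (SD, n = 11) in AGASAC. Its log2FC of 0.90 (SE 0.17, adjusted p = 0.00106) stayed under the fold threshold. The other 10 genes of the role, among them the 4 SSR genes of the translocon-associated complex, had an adjusted p over 0.05.

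ER-associated degradation was the role with no member called lower and 1 of 8 called higher in HGA, and its median log2FC was 0.53. EDEM2, a mannosidase-like protein that starts the trimming of misfolded glycoproteins, ranged from 35.7 to 97.1 CPM in HGA (median 64.7) and from 9.72 to 30.7 CPM in AGASAC (median 18.0). The metastases had 24.3, 19.1, 16.4 and 26.5 CPM, within the range of the primary tumors. Every HGA exceeded every AGASAC sample, and the log2FC was 1.82 (SE 0.21, adjusted p = 2.43e-06).

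EDEM3, of the same family, had 114 ± 51.5 CPM (SD, n = 10) in HGA and 59.4 ± 16.0 CPM (SD, n = 11) in AGASAC. The highest value, 247 CPM, was in HGA 8, and the log2FC of 0.97 (SE 0.21, adjusted p = 0.00573) was not called. It ran from 0.77 to 1.05 as each sample was left out, and was called without AGASAC 5 or 6 or without HGA 2, 3, 5, 7 or 9. The third member of the family, EDEM1, had a log2FC of 0.61 (SE 0.25, adjusted p = 0.49). DERL1, a channel component of the degradation complex, had a log2FC of 0.62 (SE 0.17, adjusted p = 0.0475). SYVN1, the ubiquitin ligase HRD1, had a log2FC of −0.58 (SE 0.17, adjusted p = 0.0771), and its partner SEL1L one of 0.11 (SE 0.17). DERL3, known from secretory cells, was too low to be tested. It had 0 to 4.30 CPM in HGA and 0.699 to 6.86 CPM in AGASAC, and no HGA other than HGA 10 exceeded 1.09 CPM.

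Of the 6 ER to Golgi transport genes, 3 were called lower in HGA. LMAN1, the cargo receptor ERGIC-53, ranged from 4.30 to 48.1 CPM in HGA (median 25.1), with the lowest value in HGA 10, and from 134 to 233 CPM in AGASAC (median 167). The metastases had 212, 167, 150 and 174 CPM. HGA lay wholly below both AGASAC groups, and the log2FC was −2.81 (SE 0.26, adjusted p = 6.35e-08). MCFD2, which works together with LMAN1 in a single receptor complex, went the other way without being called, at 216 ± 71.0 CPM (SD, n = 10) in HGA and 138 ± 30.9 CPM (SD, n = 11) in AGASAC (log2FC 0.67, SE 0.19, adjusted p = 0.0452).

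SEC24D, a cargo-binding subunit of the COPII coat, was 13.2 ± 7.41 CPM (SD, n = 10) against 55.3 ± 20.96 CPM (SD, n = 11), with no overlap and a log2FC of −2.02 (SE 0.31, adjusted p = 0.000123). SEC23B, another coat subunit, had a log2FC of −0.91 (SE 0.19, adjusted p = 0.00498) and was not called, except without HGA 10, at −1.04. KDELR3, a receptor that returns escaped ER proteins, was 23.0 ± 12.3 CPM (SD, n = 10) against 73.6 ± 37.9 CPM (SD, n = 11), with overlap and a log2FC of −1.64 (SE 0.35, adjusted p = 0.00488). Its paralog KDELR2 had a log2FC of −0.20 (SE 0.19).

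In all, 9 uncalled members had an adjusted p of at most 0.05 and missed the fold threshold, 5 lower and 4 higher in HGA. The other 24 uncalled members had an adjusted p over 0.05, with a log2FC from −1.25 to 0.61. Their standard errors ran from 0.13 to 0.51, and a p over the threshold does not show that the types are alike. The coefficient of variation within a tumor type had a median of 31.2% in HGA (11.9 to 71.0%, 50 members) and 28.7% in AGASAC (12.4 to 105%, 53 members). The members did not move as a block from tumor to tumor within a type. Over pairs of members, Spearman's rho across tumors had a median of 0.04 in the 10 HGA (1225 pairs) and 0.19 in the 11 AGASAC (1326 pairs), and the tumors share library depth and composition.

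The samples came from several RNA extraction batches, 3 of which hold at least 2 tumors of each type. All 20 called members had the same sign within each of the batches 5, 6 and 8 as in the full comparison. These tumors were part of the comparison that selected the 20, so the shared sign is no independent support. With 2 or 3 tumors of a type per batch, 2 of 53, 6 of 53 and 2 of 54 tested members were called. Over all tested genes the shares called in these batches were 2.12, 4.84 and 2.46%. XBP1 had a log2FC of −3.74 (SE 0.55) in batch 5, −3.74 (SE 0.51) in batch 6 and −4.09 (SE 0.49) in batch 8. For EDEM2 the values were 1.99 (SE 0.45), 1.59 (SE 0.53) and 1.69 (SE 0.30). With the batch as a term 19 members were called, 18 of the 20 and ATF6B, against 24.9% of all tested genes. The FASTQ files carry names of a series A or B, and series A holds 9 HGA and 3 primary AGASAC, while series B holds 1 HGA. Within series A all 20 had the same sign as in the full comparison, of which these tumors are again a part. In series A 17 of 53 members were called, against 16.1% of all tested genes, while series B gives no value for lack of HGA.

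Plasma cells are rich in XBP1 and the secretory machinery, and their markers were read beside the members. The summed level of 8 plasma cell markers was 15.2 to 130 CPM in HGA, where 7 of 8 were detected, 59.8 to 251 CPM in primary AGASAC and 93.8 to 219 CPM in the metastases, where all 8 were. JCHAIN, the joining chain of secreted antibodies, was 39.1 CPM on average in HGA and 79.0 CPM in AGASAC and was not called. The mean of 7 of the 8 markers was higher in AGASAC than in HGA. Among them POU2AF1 was 0.123 CPM in HGA and 2.63 CPM in AGASAC (at most 8.27), IRF4 was 1.27 and 3.39 CPM (at most 7.52), and MZB1 and TNFRSF17 reached at most 3.5 and 2.08 CPM in any primary tumor. PIM2, a kinase not limited to plasma cells, was the 1 marker of the list called lower in HGA (log2FC −4.00). Some markers of other cells differed too, in either direction. Of the 6 smooth muscle and myoepithelium markers, MYLK alone was called, higher in HGA (log2FC 3.1). In 4 of these 6 the log2FC was below 0, and its median over the list was −0.23. All 6 glandular epithelium markers were called lower in HGA. The 8 skeletal muscle markers summed to 0.904 to 22.7 CPM in HGA and 8.02 to 904 CPM in AGASAC, and both that were tested were called lower, ACTA1 with a log2FC of −6.38 and MYLPF with one of −4.66. The 7 macrophage markers summed to 84.8 to 329 CPM and 171 to 491 CPM, and C1QB was called lower (log2FC −1.26). The 7 proliferation markers summed to 29.7 to 359 CPM and 141 to 458 CPM, and AURKB was called lower (log2FC −1.95). The part of any of these in the results was not tested.

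For the rest of the pathway, 119 further genes were listed by role, of which 111 were found and tested. Of these, 12 were called higher and 11 lower in HGA, 20.7% in all, against 25.1% of all tested genes. Their median log2FC was −0.03, as over all tested genes. The share called per list ran from 0 to 57.1%. Among 15 other ER folding factors, 4 were called lower and 2 higher. AGR2, a disulfide isomerase of mucus-secreting epithelium, was 1.07 ± 1.23 CPM (SD, n = 10) in HGA and 60.0 ± 33.5 CPM (SD, n = 11) in AGASAC (log2FC −5.72, SE 0.54, adjusted p = 8.36e-08). MANF, a secreted ER stress protein, had a log2FC of −1.66 (SE 0.23, adjusted p = 3.26e-05), while its relative CDNF was higher in HGA (log2FC 2.05, SE 0.45, adjusted p = 0.00683).

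BHLHA15, which encodes MIST1, a regulator of secretory cell architecture, was called lower among 6 other regulators. No HGA had more than 1 count of it, and AGASAC ranged from 4.86 to 154 CPM (mean 40.5 ± 42.4, SD, n = 11). The AGASAC mean, not each tumor, was 21.9-fold the largest per-library floor of 3 counts in HGA, which is 1.84 CPM. Of 12 oligosaccharyltransferase genes, which attach the N-glycan, TUSC3 (log2FC −1.65) and OSTC (−1.23) were called lower. Of 11 signal recognition and translocon genes, SRPRA was called lower (log2FC −1.03) and SRP19 higher (log2FC 1.05). Of 13 other degradation genes, ERLEC1 was called lower (log2FC −1.18) and UBXN4 higher (log2FC 1.15). Of 24 other COPII and cargo receptor genes, SEC24B (log2FC 1.13) and MIA2 (log2FC 1.1) were called higher. No gene was called among 7 of the calnexin cycle or 9 of the COPI coat. In these lists 6 and 3 genes had an unadjusted p under 0.05, against 53.7% of all tested genes.

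The listed PERK and ATF4 targets had a higher sum in HGA, while EIF2AK3 was called lower and ATF4 was not called. The summed level of the 14 targets was 1101 to 2631 CPM in HGA, 239 to 455 CPM in primary AGASAC and 332 to 503 CPM in the metastases. CEBPB, SLC3A2 and PSAT1 made up much of that sum, which was not tested as such. Of the 14 tested, 6 were called higher and 2 lower. The median log2FC of the 14 was 0.35, with 9 above 0 and 5 below. CEBPB, a factor also of inflammation and of fat and sebaceous cells, ranged from 384 to 808 CPM in HGA (median 703) and from 38.8 to 141 CPM in AGASAC (median 82.0). The types did not overlap, and the log2FC was 3.04 (SE 0.22, adjusted p = 1.21e-09).

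PSAT1 and PHGDH belong to serine synthesis. PSAT1 ranged from 127 to 563 CPM in HGA (median 229) and from 11.4 to 35.3 CPM in AGASAC (median 23.5), a log2FC of 3.61 (SE 0.28, adjusted p = 4.97e-09). For PHGDH the log2FC was 2.61 (SE 0.41, adjusted p = 0.00012), and for SHMT2, a mitochondrial enzyme that uses serine, 1.24 (SE 0.20, adjusted p = 0.000246). SLC3A2, an amino acid transporter subunit, had a log2FC of 2.65 (SE 0.36, adjusted p = 1.66e-05). TRIB3, a stress-induced pseudokinase, ranged from 7.74 to 75.3 CPM in HGA and from 0 to 19.3 CPM in AGASAC, with a log2FC of 2.43 (SE 0.55, adjusted p = 0.00817). The genes called lower were MTHFD2, a mitochondrial folate enzyme (log2FC −2.22, SE 0.55, adjusted p = 0.0189), and PPP1R15A, which encodes GADD34, the phosphatase subunit that ends the PERK response (log2FC −1.33, SE 0.27, adjusted p = 0.00298). Several of the targets that were higher belong to amino acid metabolism, and all of them have other regulators besides ATF4.

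**Figure D3:**
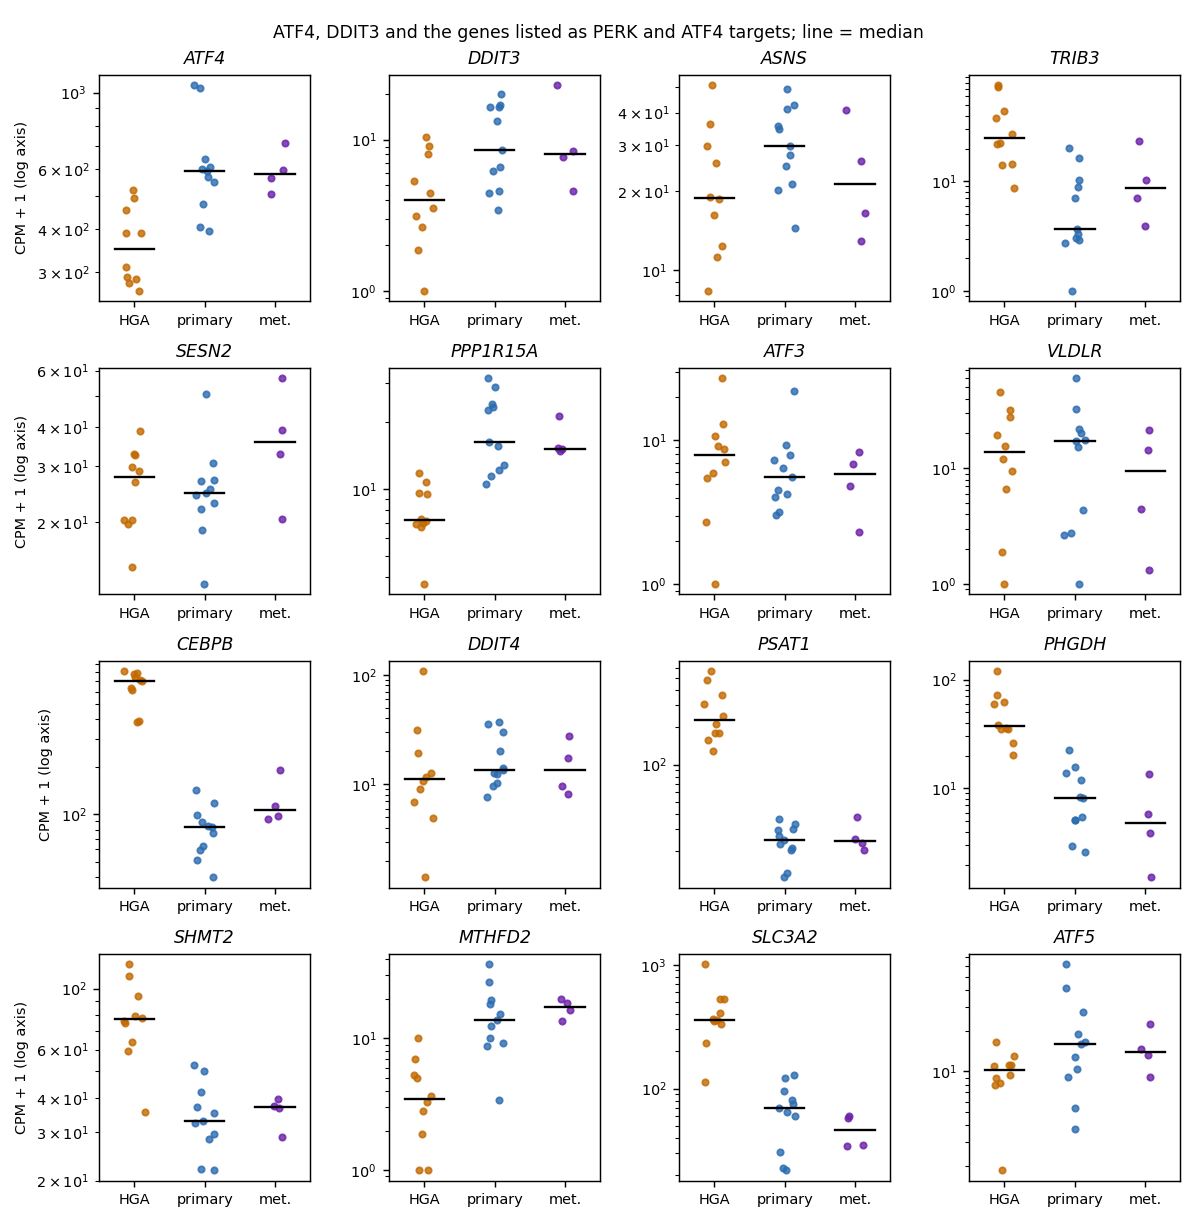
Levels of ATF4, DDIT3 and the 14 listed PERK and ATF4 targets in each tumor, as CPM + 1 on a logarithmic axis whose range differs between panels. Points are tumors (HGA n = 10, primary AGASAC n = 11, metastasis n = 4) and lines are medians. CEBPB and PSAT1 lie higher in all HGA than in any AGASAC sample, while ATF4 has its lower values in HGA.

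The 4 metastases were set against the primary tumors of these dogs, to see whether the members change at the second site. None of the 54 tested members was called by edgeR, and none had an unadjusted p under 0.05 (0% of all 12629 genes were called, and 145, or 1.15%, had an unadjusted p under 0.05). With the dog as a block 491 genes had an unadjusted p under 0.05, and again none of the members. No member was without overlap between the groups, against 1.14% of all genes, and 29 of 54 had a log2FC above 0, against 50.3%. DESeq2 also called none of the members, and neither did edgeR with the dog as a block. The log2FC of metastasis relative to primary tumor ran from −0.33 (SE 0.76) in CREB3L1 to 0.43 (SE 0.27) in EDEM2, with a median of 0.03. XBP1 had a log2FC of −0.08 (SE 0.22) and HSPA5 one of 0.10 (SE 0.29). With 4 dogs the standard errors were 0.16 to 0.76 in the edgeR fit without the dog as a block, which leaves the pairing out. In the members with the largest errors, such as CREB3L1, DERL3 (log2FC 0.19, SE 0.73) and DDIT3 (log2FC −0.22, SE 0.63), they leave room for changes past the fold threshold.

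Markers of other cells differed between the sites. All 7 T cell markers had a log2FC above 0 in the lymph node metastases, where they summed to 44.8 to 69.2 CPM (16.7 to 122 CPM over the 11 primary tumors), and CD3E, CD3G and CD8A had an unadjusted p under 0.05 without overlap. The skeletal muscle markers ACTA1 (log2FC −8.55) and MYLPF (log2FC −4.06) were lower without overlap, at an unadjusted p under 0.05, and the list summed to 2.39 to 8.63 CPM in the metastases. None of these was called, and their part in the members' values was not tested.

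Within dogs the differences of the members were mixed. On the log2(CPM + 1) scale, 3 members were higher in the metastasis in 4 of 4 dogs (PDIA6, SEC61B and EDEM2), 1 was lower in 4 of 4 dogs (ATF6B) and the other 51 were mixed or tied. For EDEM2 the differences ran from 0.01 to 1.25, for PDIA6 from 0.02 to 0.24 and for ATF6B from −0.29 to −0.02. Metastasis 3 had the lowest value of the 4 in 28 of 54 members, and metastases 1 and 4 the highest in 19 and 20. These 4 genes and the positions of the metastases were picked out after the values were seen.

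**Figure D4:**
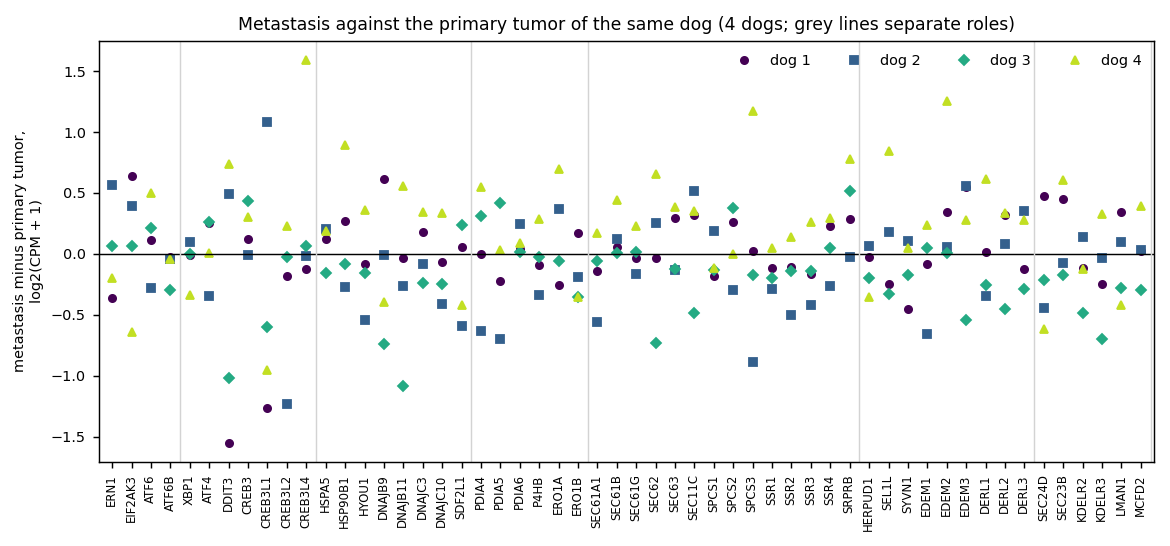
Difference between metastasis and primary tumor of the same dog, as log2(CPM + 1), for each member with counts in both groups. Each marker is a dog (4 dogs), and grey lines separate the roles. Markers scatter on both sides of 0 in most genes, and the dogs differ from each other in order and size.

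The "HGA versus metastasis" comparison shares the HGA with the first, so its values stand beside those above and are no independent support. Of 53 tested members 18 were called, 17 lower and 1 higher in HGA, against 16.1% of 13195 genes (7.69% lower, 8.4% higher). The groups did not overlap in 17 members, against 16.1% of all genes, and 29 members had an unadjusted p under 0.05, against 41.2%. XBP1 had a log2FC of −4.05 (SE 0.24, adjusted p = 5.12e-08), LMAN1 one of −2.81 (SE 0.35, adjusted p = 0.000138) and EDEM2 one of 1.57 (SE 0.29, adjusted p = 0.00647). SEC61B was called here, with a log2FC of −1.16 (SE 0.25, adjusted p = 0.0223), and at 126 to 346 CPM in the metastases it overlapped with the 66.5 to 143 CPM of the HGA. DNAJB9 (log2FC −1.44, adjusted p = 0.055), SEC61A1 (log2FC −0.95, adjusted p = 0.0116) and CREB3L1 (log2FC −1.63, adjusted p = 1) were not. Some of these calls changed when a sample was left out. As each sample was left out, ERN1 ran from −2.35 to −1.81 and was not called without metastasis 2, and DNAJC10 ran from −1.15 to −1.01 and was not called without metastasis 1 or 2. SEC61B (−1.37 to −0.94), SEC24D (−2.01 to −1.76) and KDELR3 (−2.03 to −1.70) were not called without metastasis 1, 2 or 4, nor KDELR3 without HGA 1, 5 or 7. DNAJB9 (−1.63 to −1.23) was called without HGA 1, 2 or 5, SEC61A1 (−1.05 to −0.80) without metastasis 2 or 3 or HGA 10, and SEC23B (−1.21 to −0.99) without HGA 10. CD3G, a T cell marker, was also called lower in HGA in this comparison.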

How the data were processed

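The members and the further lists were chosen with earlier results of these data known. The deposited table holds raw counts per gene, which the authors made from FFPE QuantSeq 3′ reads by trimming with Cutadapt, aligning to CanFam3.1 (RefSeq GCF_000002285.3) with STAR and counting in rounds of featureCounts, the second with 3′ ends extended by 2 kb. Multi-mapped reads were split evenly over their locations, which makes genes with near-identical copies less certain. Tool versions and strand setting are not given in the sources used here. The same deposited table holds a signal, counts divided by the authors' size factors with their mean, the authors' log2 fold change with its error, and the authors' p-value and adjusted p-value. None of these was used. All per-sample columns matched a sample (0 left over), and no coordinates are given, because the annotation table used here belongs to a different assembly. Promoter motifs and protein ends were not analysed here.

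The count analysis used edgeR 4.0.16 (R 4.3.3). After filterByExpr (minimum count 10, minimum total 15), genes were scaled by TMM and tested by the quasi-likelihood test in the groups of each comparison without covariates, as in the study's own 10 HGA and 11 AGASAC. P-values were adjusted by Benjamini-Yekutieli over all tested genes, and standard errors are the log2FC over the root of F. The procedure was tested on simulated data. Named members are those called in any comparison and, per role, the member with the highest mean CPM and the uncalled member with the smallest p. The others named were added to complete families. Of the further lists, up to 3 called genes each follow the rule, and the other called genes named were added after their values were seen.

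HGA and AGASAC are different dogs, so their numbers do not pair. Metastasis and primary tumor of a number come from the same dog by the labels, and their deviations from the group means correlated at r = 0.428 to 0.730 across 12629 genes in 4 of 4 dogs. A chi-square test found 0 duplicate libraries. Alternatives were RLE, library size alone, other filters, DESeq2 1.42.0, Benjamini-Hochberg adjustment, terms for extraction batch, the series of the FASTQ file names (AGASAC 4 left out, as its series was not known) and DV200, single batches or series, all AGASAC samples, the dog as a block, and leaving out each sample. The batch-wise fits of both comparisons with metastases were chosen after seeing the data.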

Additional observations from a re-analysis of the deposited data

Results flagged for a closer look

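In 108 groups of 4 metastasis or 10 HGA values, 12 held a sample far from the others by Dixon's criterion on CPM. Chance alone would give about 5.4, as it flags about 1 in 20 if values are normally distributed, which was not tested. The primary AGASAC were not screened. HGA 4 was the high sample in ERN1 (60.9 CPM, next 26.2), CREB3L4 (9.22 CPM, next 4.32) and SPCS3 (149 CPM, next 88.3). HGA 10 was the high sample in SDF2L1 (41.3 CPM, next 21.7), SEC23B (45.2 CPM, next 30.4) and DERL3 (4.30 CPM, next 1.09). HSP90B1 reached 253 CPM in HGA 7 (next 157) and EDEM3 reached 247 CPM in HGA 8 (next 132). Metastasis 1 was high in EIF2AK3 (75.6 CPM, next 45.9) and SSR4 (404 CPM, next 191), and metastasis 4 in SEC61G (209 CPM, next 151). Metastasis 3 was low in SEC62, at 336 CPM where the next value was 814. ERN1, CREB3L4, SDF2L1 and HSP90B1, called and flagged in HGA, stayed called in the "HGA versus AGASAC" comparison without HGA 4, 7 or 10. These HGA were left out in turn. Metastasis 1, in which EIF2AK3 was flagged, is not part of that comparison. In "HGA versus metastasis" EIF2AK3 stayed called in all 14 fits that left out a sample.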

How the results depend on the processing

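In no alternative did a called member change its direction, but the alternatives reuse the samples by which these members were called. In "HGA versus AGASAC", 20 members were called with RLE, without the filter, with DESeq2, with DV200 as a term and with all 15 AGASAC samples (from 11 dogs, so dogs 1 to 4 enter as both tumors), 21 with Benjamini-Hochberg adjustment, 19 with the extraction batch (without DNAJC10 and SEC61A1, with ATF6B) or the naming series (without CREB3L1) as a term, 17 within naming series A, 14 of 44 with at least 10 counts in every sample (13 of the 20, and ATF6B), and 19 to 22 when a sample was left out. The members' median log2FC, −0.72 at first, was −0.37 under that stricter filter, −0.39 within batch 6 and −1.01 with library size alone. Library size alone called 26, 25 of them lower. It moved the median log2FC of all genes by −0.30 and the share of lower calls among all calls from 49.8% to 67.2%, and in "HGA versus metastasis" by −0.28 and from 47.8% to 63.7%, with 23 members called. Within batches 5, 6 and 8 the calls fell to 2, 6 and 2 members and to 262, 637 and 338 genes, on fewer samples. These genes were 2.12, 4.84 and 2.46% of those tested. All genes called, 3032 at first, were 1452 with at least 10 counts in every sample (fewer genes tested), 2009 with the naming series as a term (the cause was not tested) and 2828 to 3373 when a sample was left out. Between metastasis and primary tumor, no alternative called a member. With the dog as replicate block, which the pairing allows, 1 gene in all was called, and with DESeq2 5, against 0. In "HGA versus metastasis", where 18 members and 2124 genes were called, members ranged from 14 to 20 and genes from 1543 to 2588 when a sample was left out. All genes were 1153 with at least 10 counts in every sample and 3536 with Benjamini-Hochberg adjustment. Within batches 5 and 8, where 2 metastases each remain, 0 members and 0 genes were called. An unadjusted p under 0.05 was found in 20 and 24 of 53 members, against 3074 of 13079 and 4386 of 13149 genes. Low counts limited ERN2, DERL3, CREB3L4, DDIT3 and CREB3L1, which had under 10 counts in 5 or more of the 10 HGA. Whether this came from depth or from low expression was not tested.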
